A study of Homo sapiens with 4 samples.

Results

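The genes described here are NEAT1, MALAT1 and 5 genes of paraspeckle proteins, SFPQ, NONO, PSPC1, RBM14 and TARDBP, in HCT116 cells with and without hydrogen peroxide (H2O2). HCT116 is an established human colon cancer cell line, and H2O2 is a small oxidant that enters cells. The members were taken by symbol from the authors' deposited table of 16376 genes, and all 7 were listed there. They were chosen with their mean levels in this same comparison known, so their differences between the groups are given as a description, without a test. RNA was poly(A)-selected and sequenced from 2 untreated samples (Control) and 2 H2O2-treated samples, with no dose, exposure time or genetic change named in the labels. Nothing in the labels says that samples of a group were separate cultures, so every p-value below measures the spread between these samples, which may be technical.

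Paraspeckles are bodies in the nucleus that assemble on the long form of the noncoding RNA NEAT1. SFPQ, NONO and PSPC1 belong to one protein family (the DBHS proteins), bind RNA as pairs and coat NEAT1, and paraspeckles hold back some RNAs and proteins in the nucleus. The NEAT1 gene also makes a short, polyadenylated form that starts at the same place. MALAT1 is a second abundant nuclear RNA from the next gene along the chromosome, found in nuclear speckles, which hold splicing factors. Both MALAT1 and long NEAT1 are cut at their 3′ end by RNase P and carry no added poly(A) tail. Their ends are instead protected by a triple helix that a genome-encoded stretch of A forms with U-rich stretches before it.

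The 3′ ends are shown because the libraries were selected for poly(A), and these stretches of A are part of the genes themselves. Both come from GENCODE release 29 transcripts on GRCh38, 5′ to 3′ on the plus strand. The end of the long NEAT1 transcript (22743 bases) is chr11:65445441-65445540, and the matching window of the longest MALAT1 transcript (8708 bases) is chr11:65506017-65506116, with 353 annotated bases after it. Both windows lie in an exon of a noncoding gene. Capitals mark the longest word common to both windows (16 bases) and the final stretch that both share (11 bases).
NEAT1: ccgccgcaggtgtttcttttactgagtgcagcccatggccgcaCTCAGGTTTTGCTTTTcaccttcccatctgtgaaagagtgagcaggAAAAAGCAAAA
MALAT1: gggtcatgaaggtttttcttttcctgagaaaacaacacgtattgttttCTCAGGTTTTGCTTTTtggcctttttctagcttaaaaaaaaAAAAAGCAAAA
The run of A before the last G was 5 bases long in NEAT1 and 13 in MALAT1. Elsewhere in the long NEAT1 transcript lies a run of 22 A, longer than either, while no run in the other annotated NEAT1 transcripts exceeds 5. Of 58721 genes, taken by their longest transcript, 351 (0.598%) held the final stretch AAAAAGCAAAA. The word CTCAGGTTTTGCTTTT within the 100 bases that end in that stretch was found in 2 genes, NEAT1 and MALAT1 themselves, from which the word was derived. Of 8 annotated NEAT1 transcripts the long one alone held the final stretch, and the longest of the others had 3524 bases. The deposited counts are per gene and do not separate these forms.

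The 2 noncoding RNAs were both lower with H2O2, while the 5 protein genes differed little between the groups. NEAT1 stood at 60.1% and MALAT1 at 72.4% of the Control mean in the authors' deposited table. The other 5 lay between 90.4% (SFPQ) and 114% (TARDBP). At an adjusted p under 0.05 in the authors' deposited table, NEAT1 and MALAT1 were the 2 of 7 called, both lower, against 4.62% of all listed genes called lower and 2.58% called higher. limma on recovered libraries also called 2 of 7, against 4.1% of all listed genes. Because the members were chosen on this comparison, nothing is read from either count. By limma 0 of the 7 were called with the deeper H2O2 library left out, 1 with the shallower left out, and 4 with the shallower Control left out.

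**Figure D1:**
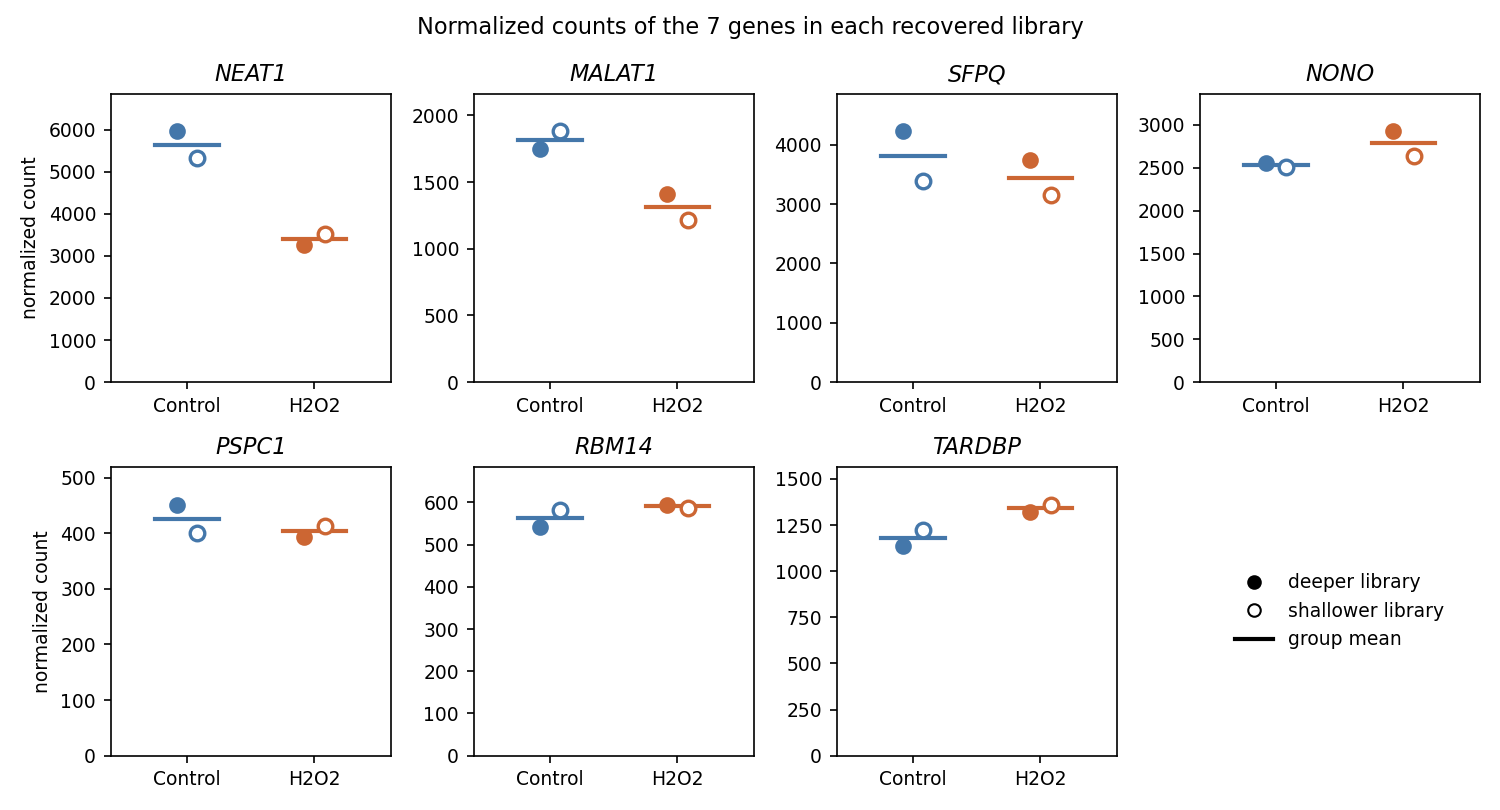
Normalized counts (reads divided by the authors' size factor, linear axes from 0) of the 7 genes in each of the 4 recovered libraries. Filled points are the deeper and open points the shallower library of a group, and bars are group means. Both H2O2 libraries sit below both Control libraries for NEAT1 and MALAT1.

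Whole reads in each library were recovered from the deposited group means, as the processing section describes. The libraries held 6858809 to 7365032 reads over listed genes, and they are named by depth within their group, deeper or shallower, because none carries a replicate number. The deposited means carry only the letters A and B. Control was assigned to A because the title puts it first, and every direction rests on this. Of 8 colon epithelial markers 6 were listed, with summed normalized counts of 7391 to 8812 in Control and 8848 to 9248 with H2O2, while CDX1 and LGALS4 were not listed. Of 11 markers of immune, endothelial and fibroblast cells 3 were listed (CD14, COL1A1 and COL3A1), with sums of 918 to 997 in Control and 747 to 816 with H2O2. These 3 went different ways. The mean of COL1A1, which makes up most of the sum, fell from 753 to 553 normalized counts (adjusted p = 0.0211 in the authors' deposited table). CD14 rose from 5 and 3 reads to 19 and 10 (0.0270 there), and COL3A1 overlapped between the groups. Their part in the results was not tested.

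NEAT1, the scaffold RNA of paraspeckles, had 6221 and 5182 reads in the deeper and shallower Control libraries and 3387 and 3377 reads in those with H2O2. Divided by size factors, these were 5963 and 5319 normalized counts in Control against 3269 and 3513 with H2O2. The groups did not overlap, and the gap between them was larger than the spread within either group. The mean was 5641 ± 455 normalized counts in Control and 3391 ± 172 with H2O2 (SD, n = 2 recovered libraries each). Its log2 ratio of H2O2 over Control was -0.73 in the authors' deposited table.

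MALAT1, the speckle RNA, had 1823 and 1834 reads in Control and 1465 and 1166 reads with H2O2, deeper library first. In normalized counts these were 1747 and 1883 in Control and 1414 and 1213 with H2O2. Again both treated libraries lay below both untreated ones, with group means of 1815 ± 95.6 and 1313 ± 142 (SD, n = 2 each). The log2 ratio was -0.47 in the authors' deposited table, a smaller difference than that of NEAT1.

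Both RNAs may be counted together with other annotated genes. NEAT1 overlaps the microRNA gene MIR612 on its own strand, and MALAT1 overlaps the gene AP000769.2 on the other strand. Whether counting used strand is not given in the sources used here. Reads in such overlaps may have been left out or assigned to either gene, so the effect on these counts is not known. Few words of these RNAs occur in transcripts of other genes, 0.829% of the 75-base words of NEAT1 and 0.243% of those of MALAT1.

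SFPQ, the largest DBHS protein and one needed for paraspeckles to form, had 4412 and 3305 reads in Control and 3869 and 3035 with H2O2. Its normalized counts were 4229 and 3393 in Control against 3735 and 3157 with H2O2. The groups overlapped, and the 2 Control libraries differed by 0.32 on the log2 scale, more than the groups did (-0.15). NONO, its partner, had 2551 and 2513 normalized counts in Control and 2927 and 2642 with H2O2. Here the H2O2 libraries were both higher, by a mean of 253 normalized counts (log2 ratio 0.14). PSPC1, the least abundant of the 3 by normalized count per kb of exon, had 451 and 400 in Control and 394 and 413 with H2O2, normalized counts that overlapped. The gene PSPC1-AS2 overlaps PSPC1 on the other strand, and the effect on the count of PSPC1 is likewise not known.

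Summed over the 3 DBHS genes, normalized counts were 7231 and 6306 in Control and 7055 and 6212 with H2O2. The H2O2 mean was 98.0% of the Control mean, so the summed family level was nearly the same in both groups while NEAT1 was lower. SFPQ made up 58.5% and 53.8% of that sum in Control and 52.9% and 50.8% with H2O2. NONO made up 35.3% and 39.8% in Control and 41.5% and 42.5% with H2O2. Within the family the ratio of SFPQ to NONO was 1.66 and 1.35 in Control and 1.28 and 1.19 with H2O2. The 2 Control libraries differed more in this ratio (1.66 against 1.35) than the shallower Control did from the deeper H2O2 library (1.35 against 1.28).

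RBM14, an RNA-binding coactivator also needed for paraspeckle formation, had 541 and 583 normalized counts in Control and 595 and 588 with H2O2. The nearest libraries of the 2 groups were 583 and 588, less than the spread within Control. RBM14 shares 13% of its 75-base words with other genes and overlaps the readthrough gene RBM14-RBM4 on the same strand, so its count is uncertain. TARDBP encodes TDP-43, an RNA-binding protein that binds NEAT1 and is linked to motor neuron disease. It had 1138 and 1224 normalized counts in Control and 1321 and 1361 with H2O2, the largest of the higher differences among the 7 (log2 ratio 0.18). Both treated libraries were above both untreated ones, but 28.1% of its 75-base words are shared with transcripts of other genes and AL109811.4 overlaps it on the same strand, so its count is uncertain too.

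Groups without overlap were seen in 5 of the 7 genes, 2 lower and 3 higher. With 2 libraries a group this is common, since 51.9% of all listed genes had groups that did not overlap, 26.3% higher and 25.6% lower. In genes with a mean of at least 200, the 2 Control libraries differed by a median of 0.16 on the log2 scale and the 2 H2O2 libraries by 0.089. Against those spreads the absolute log2 ratios of PSPC1 (0.078), RBM14 (0.073), NONO (0.14) and SFPQ (0.15) were no larger than the typical difference between the Control libraries. The lowest count of any member was 390 reads (PSPC1), with a 95% exact Poisson interval of 352 to 431 that covers counting error only.

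**Figure D2:**
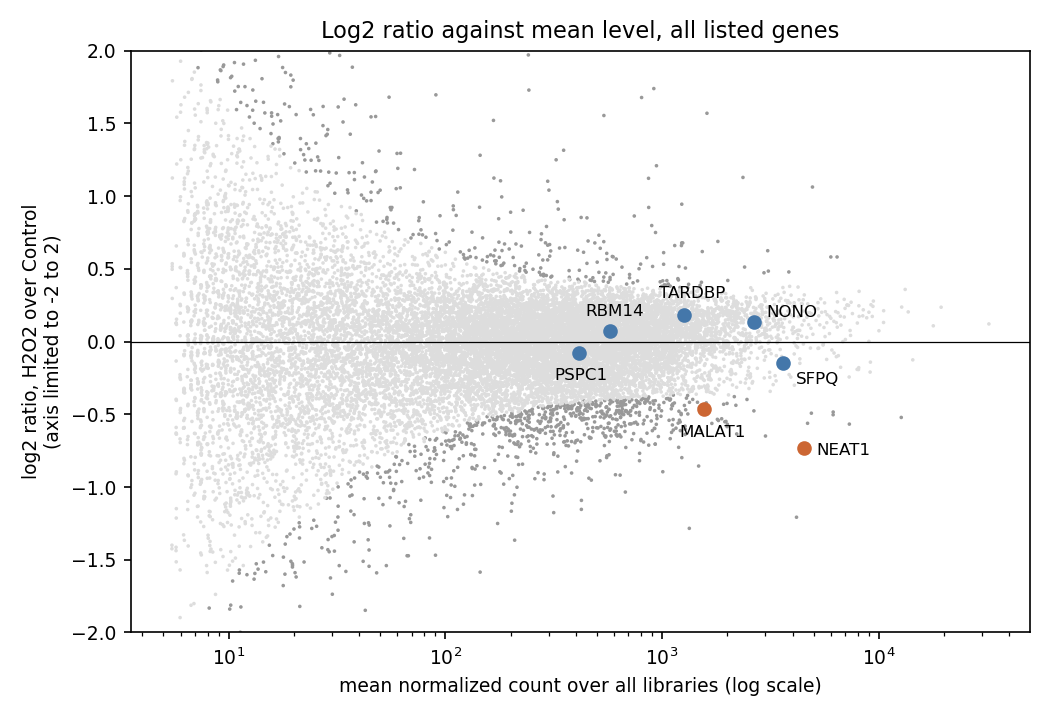
Log2 ratio of H2O2 over Control (vertical, limited to -2 to 2) against mean normalized count (horizontal, log scale) for all listed genes, dark grey where called at an adjusted p under 0.05 in the authors' deposited table. NEAT1 (-0.73) and MALAT1 (-0.47), in orange, lie on the lower side of the cloud, and the other 5, in blue, lie between -0.15 and 0.18.

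Levels of different genes were compared per kb of exon, with lengths from GENCODE release 29. In Control, SFPQ (513 normalized counts per kb) and NONO (478) were highest, followed by NEAT1 (248), MALAT1 (206), TARDBP (194), RBM14 (143) and PSPC1 (88.4). With H2O2, NONO (526) stood above SFPQ (464), then TARDBP (221), and RBM14 (150), NEAT1 (149) and MALAT1 (149) were level. These orders rest on the length taken, here all exons of a gene together, 7.43 kb for SFPQ and 5.29 kb for NONO. Their longest transcripts have 3747 and 3215 bases. Levels over transcript length were not computed for the protein genes, and the order of SFPQ and NONO may differ there. The place of NEAT1 also rests on which form was captured. Over its full exonic length of 22.8 kb it was at 248 per kb in Control, and over the longest transcript without the triple helix end it would be at 1601 in Control and 962 with H2O2. On the full length, the Control rank among all genes with a length was 1339 for NEAT1 and 1750 for MALAT1, and with H2O2 they were 2667 and 2675.

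Within each library NEAT1 and MALAT1 did not keep a fixed ratio. The ratio of their normalized counts was 3.41 and 2.83 in Control and 2.31 and 2.90 with H2O2, so the groups overlapped. The ratio of NEAT1 to NONO went from 2.34 and 2.12 in Control to 1.12 and 1.33 with H2O2, and that of NEAT1 to SFPQ from 1.41 and 1.57 to 0.875 and 1.11.

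Genes with a long total exonic length were more often lower with H2O2. By full exonic length NEAT1 (22.8 kb) and MALAT1 (8.83 kb) are long. Of genes with a mean of at least 50, the 2461 with at least 8 kb of exon had a median log2 ratio of -0.17, and 12.5% of them were called lower in the authors' deposited table. Among the 818 genes under 2 kb the median was 0.17, and 1.71% were called lower. The same trend with length separated the 2 Control libraries, with medians for the shallower over the deeper of -0.15 from 8 kb and 0.18 under 2 kb. Within the long class, 1.10% of genes had a lower ratio than NEAT1 and 10.8% a lower ratio than MALAT1. The class of NEAT1 rests on the form captured: its 3524-base transcript would fall among genes of 2 to 4 kb, whose median was 0.12 and of which 1.08% had a lower ratio than NEAT1. The part of length in the 2 differences was not tested.

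**Figure D3:**
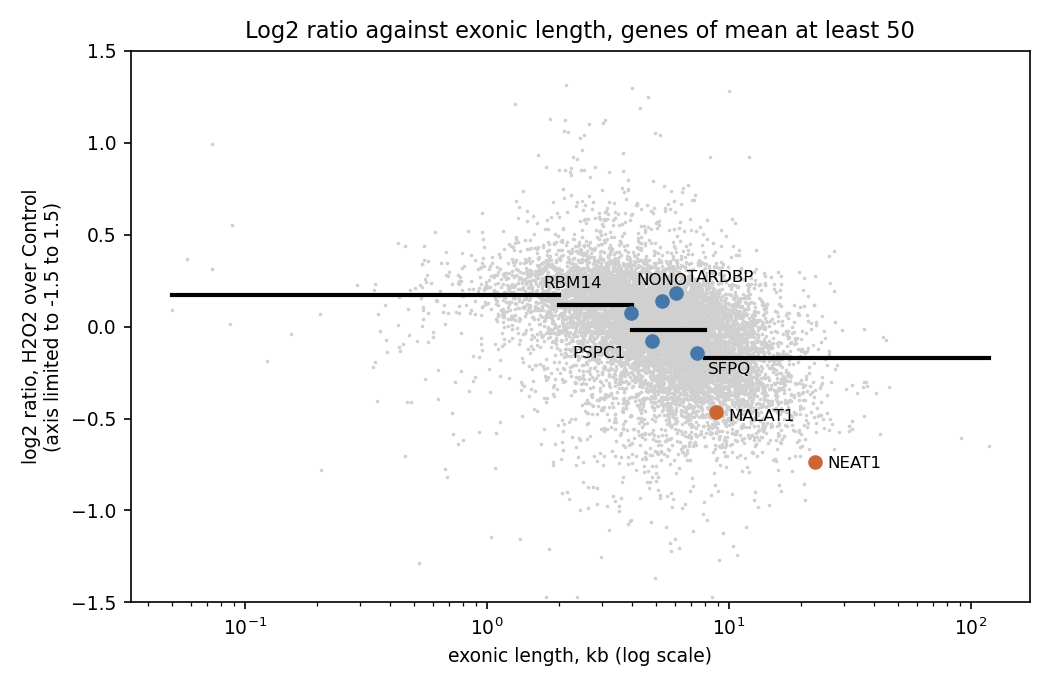
Log2 ratio of H2O2 over Control (vertical, limited to -1.5 to 1.5) against exonic length in kb (log scale) for genes with a mean of at least 50. Black lines are the medians of the length classes, from 0.17 under 2 kb to -0.17 from 8 kb, and NEAT1 and MALAT1 (orange), placed by full exonic length, lie below the line of their class.

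Leaving out each library in turn kept NEAT1 between -0.81 on the log2 scale, with the shallower Control left out, and -0.65, with the deeper Control left out. MALAT1 ranged from -0.58 without the deeper H2O2 library to -0.36 without the shallower. NONO, RBM14 and TARDBP kept a positive ratio in all 4 cases, with NONO lowest (0.062) when the deeper H2O2 library was left out and highest (0.21) when the shallower one was. SFPQ went to 0.022 and PSPC1 to 0.011 without the deeper Control library, so their small negative ratios rest on that library.

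**Figure D4:**
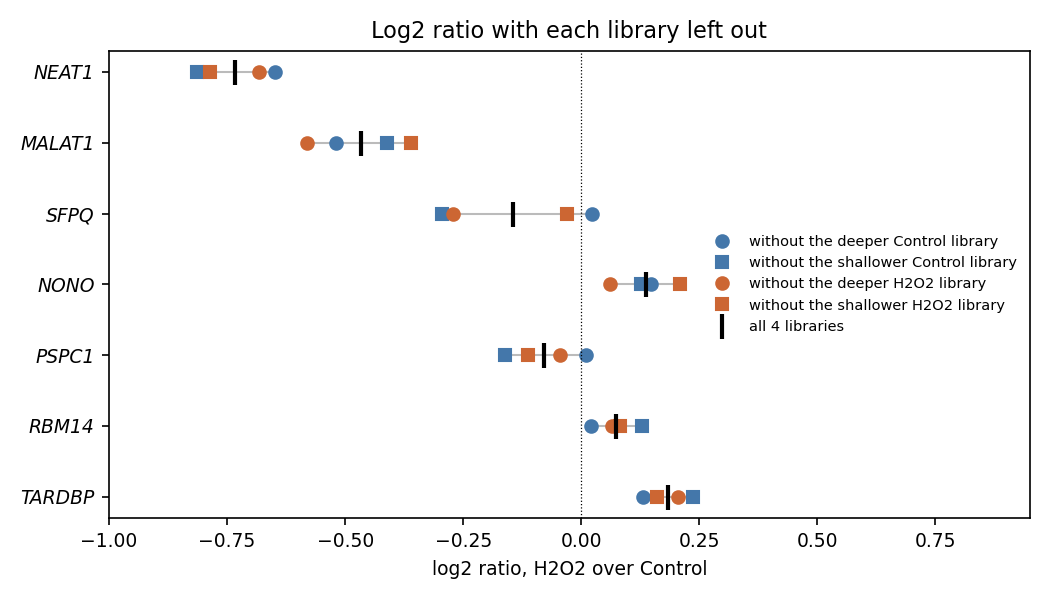
Log2 ratio of H2O2 over Control for the 7 genes with all 4 libraries (black ticks) and with 1 library left out (symbols). NEAT1 and MALAT1 stay below 0 in each case, and SFPQ and PSPC1 pass 0 without the deeper Control library.

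Other paraspeckle proteins were read from a list of 34, of which 32 were listed. By the authors' deposited adjusted p, 3 genes fell and 0 rose, leaving 29 uncalled, which is 9.38% called against 7.19% of all listed genes, and the median log2 ratio was -0.088 against 0.00028 for all genes. At an unadjusted p under 0.05 there were 7 (21.9%), against 19.6% of all listed genes. HNRNPA1, a splicing regulator, fell from 724 and 610 reads to 345 and 399, a ratio of 0.567 with an adjusted p = 7.71e-07 in the authors' deposited table. It is uncertain, because 27.2% of its words occur in other genes' transcripts. EWSR1, an RNA-binding protein, fell from 973 and 728 reads to 586 and 592 (adjusted p = 0.00399 in the authors' deposited table). AHDC1, an AT-hook protein gene, fell from 391 and 383 reads to 290 and 255 (0.0225 there).

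limma on the recovered libraries called the same 3 genes, HNRNPA1, EWSR1 and AHDC1, with adjusted p = 0.00291, 0.0369 and 0.0402. With the deeper H2O2 library left out, EWSR1 and AHDC1 were not called by limma (adjusted p = 0.344 and 0.213), and the same held with the shallower left out (0.0902 and 0.290). HNRNPA1 passed in all 4 such fits, with a highest adjusted p of 0.0415. RBM4B and SS18L1 were the next by p and did not pass, at log2 ratios of -0.42 and -0.33 (adjusted p = 0.141 and 0.157 in the authors' deposited table).

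Several proteins needed for paraspeckles or for the choice between NEAT1 forms were not among the calls. HNRNPK, which favours the long form, had means of 1434 and 1617 normalized counts in Control and H2O2. CPSF6 and NUDT21, subunits of the complex that promotes polyadenylation of the short form, had log2 ratios of -0.022 and 0.12 in the authors' deposited table. DAZAP1 and SMARCA4, also needed for intact paraspeckles, had ratios of 0.011 and -0.14. None of these 5 passed, which does not show that they were equal.

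Of 7 transcription factors tied to NEAT1 transcription 0 passed in either test, the authors' deposited DESeq or limma, and 0 had an unadjusted p under 0.05 in either. Over all listed genes the shares were 7.19% and 4.1% at an adjusted p, and 19.6% and 20.2% unadjusted, in the authors' deposited table and limma. Their median log2 ratio was -0.014, with STAT3 at -0.14, and HSF1, the heat shock factor, stood at -0.024. ATF2 was at 0.039, HIF1A at -0.014, EPAS1 at -0.015 and BRCA1 at 0.0035 in the authors' deposited table. Between the Control libraries the median of these 7 in the shallower Control library was 0.21 lower than in the deeper one, a wider gap than any of its ratios between the groups.

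Genes that finish the MALAT1 3′ end encode RNase P subunits, the tRNA-trimming enzyme ELAC2 and METTL16, which binds the triple helix. Of 12, 11 were listed and none passed in the authors' deposited table or in limma, and none had an unadjusted p under 0.05 in either, against the same all-gene shares of 7.19% and 4.1% adjusted and 19.6% and 20.2% unadjusted. Their median log2 ratio was 0.13, with METTL16 at -0.21, POP4 at 0.24, POP7 at 0.22 and RPP30 at 0.19. The nuclear exosome, which degrades RNA from the 3′ end, and its adaptors gave no call among 17 genes in either test, against 7.19% and 4.1% of all listed genes. At an unadjusted p under 0.05 there were 2 in each (11.8%, against 19.6% and 20.2%), and the median was 0.095. The nearest to the threshold were EXOSC5 at 0.36 and EXOSC2 at -0.26 (adjusted p = 0.131 and 0.254 in the authors' deposited table).

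Nuclear speckle proteins, the neighbours of MALAT1 in the cell, held 3 lower calls among 26, with 0 higher and 23 uncalled by the authors' deposited adjusted p (median -0.044). That is 11.5% against 7.19% of all listed genes, and 10 (38.5%) had an unadjusted p under 0.05 against 19.6%. SRRM2, a core protein of speckles, fell from 9934 and 7751 reads to 5990 and 5780 (adjusted p = 0.00579 in the authors' deposited table). DDX39B, an RNA helicase of splicing and export, fell to 0.656 of its Control mean (1.63e-04 there), and CLK2, a kinase of SR proteins, to 0.641 (9.93e-04 there). The count of DDX39B is uncertain, since it shares 16.9% of its 75-base words with other genes. All 3 were called by limma (adjusted p = 0.0193, 0.00723 and 0.0119) and none of them without the deeper H2O2 library (0.367, 0.217 and 0.169). With the shallower H2O2 library left out, SRRM2 was again uncalled (0.198). The splicing factor genes SRSF3 and SRSF7 had ratios of 0.31 and 0.28, and SRSF5 of -0.28, without passing. U2AF1 shares 98.4% of its words with other genes, so its value cannot be assigned to it.

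**Figure D5:**
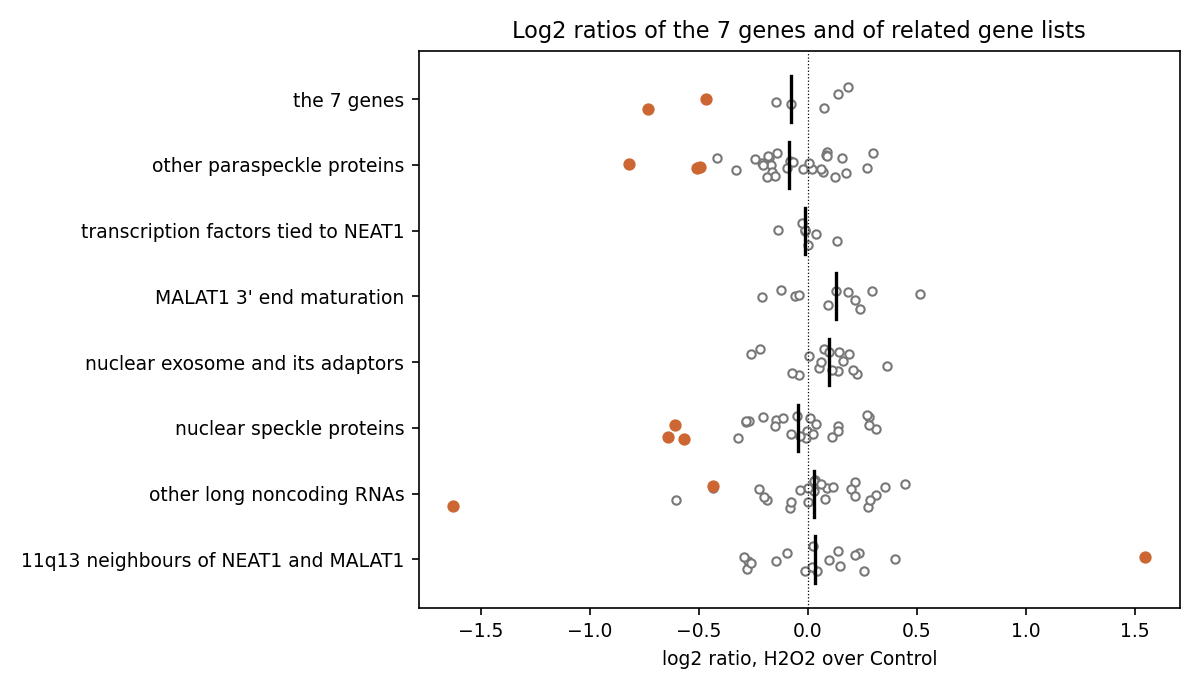
Log2 ratio of H2O2 over Control for the 7 genes and for the genes of 7 related lists, filled where called at an adjusted p under 0.05 in the authors' deposited table. Black lines are medians, all between -0.088 and 0.13, and the calls are few in each list.

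Among 30 other long noncoding RNAs, 27 were listed. By the authors' deposited adjusted p 2 fell, 0 rose and 25 were uncalled (7.41% called against 7.19% of all listed genes, median 0.030). MIR17HG, the host of the miR-17 cluster, fell from 63 and 28 reads to 17 and 12 (adjusted p = 4.59e-04 there), and SNHG12 from 755 and 748 reads to 548 and 552 (0.0250 there). In limma MIR17HG did not pass without the deeper Control library (adjusted p = 0.192), nor SNHG12 without either H2O2 library (0.499 and 0.178). KCNQ1OT1, a long nuclear RNA with 91.7 kb of exon, had 158 and 88 reads in Control and 86 and 73 with H2O2 and missed the threshold (adjusted p = 0.0509 in the authors' deposited table). TUG1 and GAS5 stood at log2 ratios of 0.090 and -0.083 there, and SNHG8 and DANCR at 0.32 and 0.29, none of them past the threshold.

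Around NEAT1 and MALAT1 on chromosome 11, 18 neighbouring genes were read. By the authors' deposited adjusted p 1 rose, 0 fell and 17 were uncalled (5.56% called against 7.19% of all listed genes, median 0.033). TIGD3, a gene derived from a transposase, was the 1 that rose, from 25 and 24 reads to 61 and 80 (adjusted p = 2.64e-05 there), and it passed in limma with each library left out. In gene order from RefSeq, the neighbour next to NEAT1 (-0.73) is SLC25A45, with a log2 ratio of 0.26 and groups that overlapped. Groups did not overlap in 6 neighbours that were lower and 4 that were higher, against 25.6% and 26.3% of all listed genes. The lower ones include FRMD8, LTBP3, EHBP1L1 and PCNXL3, between -0.29 and -0.26 (adjusted p from 0.167 to 0.321 in the authors' deposited table). The higher ones are TIGD3, DPF2 (0.14), KAT5 (0.15) and RNASEH2C (0.22), of which TIGD3 alone passed.

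The promoter of MALAT1 at its RefSeq gene start is printed because MALAT1 is 1 of the 2 members that were lower. It runs from 250 bases before to 50 bases after the start, at chr11:65497488-65497787 on the plus strand of GRCh38.p14, with GC boxes (GGGCGG on either strand) in capitals.
MALAT1 promoter: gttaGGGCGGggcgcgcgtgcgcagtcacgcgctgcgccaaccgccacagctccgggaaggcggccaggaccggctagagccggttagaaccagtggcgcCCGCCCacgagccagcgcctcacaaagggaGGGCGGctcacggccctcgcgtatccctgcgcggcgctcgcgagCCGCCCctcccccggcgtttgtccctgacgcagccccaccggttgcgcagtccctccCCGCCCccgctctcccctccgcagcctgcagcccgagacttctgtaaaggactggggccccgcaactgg
It held 5 GC boxes, a motif present at least once in 45.0% of 35116 RefSeq promoters of the same length. It also held 2 matches to the core of the antioxidant response element (TGACNNNGC, both strands), present at least once in 13.3%. Shares of promoters with several matches were not computed. No match was found to the heat shock element GAANNTTC, the AP-1 site TGANTCA, the CRE TGACGTCA, the CCAAT box (CCAAT), the E-box CACGTG or the ETS site CCGGAAG, each searched on both strands. A window at a second MALAT1 start (chr11:65498795-65499094) held none of the 8 motifs. The windows of NONO and RBM14 held 3 CCAAT boxes each, a motif found at least once in 34.6% of promoters. TARDBP held 1 GC box, and PSPC1 held 1 match to the antioxidant element core. NEAT1 and SFPQ have no entry in the promoter table used.

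Among the 5 genes whose levels over the 4 libraries were most like those of NEAT1, by Euclidean distance of centred log2(normalized count + 1) among 4213 genes with a mean of at least 500, were GIGYF1, NBEAL2, ANKRD52 and USP36. Their distances were 0.083 to 0.10 and their log2 ratios -0.73 to -0.65. GIGYF1 had 1577 and 1398 normalized counts in Control and 903 and 895 with H2O2. MALAT1 stood 222nd in likeness to NEAT1, at a distance of 0.40. Nearest to MALAT1 itself were NLGN2, CPNE7, CDC42BPG, RP11-166D19.1 and ATXN2L, at 0.062 to 0.094, with log2 ratios from -0.47 to -0.37. Each distance rests on 4 libraries.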

How the data were processed

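The study deposited 1 table of 16376 genes. Per the file headers it gives a signal for each group, which is the authors' average of size-factor-scaled counts. It also gives the authors' fold (one average over the other), deposited on a log2 scale too. The deposited p-value of each gene and the adjusted p come from the authors' DESeq run. Per the submitters' processing notes, the authors used STAR, HTSeq, DESeq, Trim Galore, FastQC and CASAVA 1.8 with build hg19. Annotation release and strand setting: not given in the sources used here. Genes under an overall mean of 5.46 are not analysed here.

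Each group mean was solved for 2 whole counts divided by 2 size factors, with a tolerance of 1e-09. All 16376 genes had 1 solution in each group, and size factors computed from these counts equalled the solved ones. Both this step and limma were also run on simulated counts. The limma simulation gave every gene the same spread beyond counting error and no trend with length. It therefore does not show how limma performs on these libraries. limma 3.58.1 in R 4.3.3 was run on log2(normalized count + 1) with a mean-variance trend as an alternative to the authors' test, and its leave-one-out fits were added after the data were seen. Exonic lengths, overlaps and 75-base words are from GENCODE release 29 on GRCh38, matched by symbol. Promoters are RefSeq's.

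The members, lists and alternatives were chosen with earlier results of these data known. Named genes are all members, the calls of each list with up to 5 of its smallest adjusted p, and the 5 genes most like NEAT1 and MALAT1. HNRNPK, CPSF6, NUDT21, DAZAP1, SMARCA4, ELAC2, TUG1, GAS5, DPF2, KAT5, RNASEH2C and other list members outside that rule were named for their known roles or place, after their values were seen. A few genes falling under this rule are left out of the text.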

Additional observations from a re-analysis of the deposited data

How the results depend on the processing

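No paired analysis was possible because no recovered library carries a replicate number. Over all listed genes, 1178 were called, 671 in limma, and 642 at an adjusted p under 0.01. At that stricter threshold 1 other long noncoding RNA was called in place of 2, and 2 other paraspeckle proteins in place of 3. Fits with a library left out leave a group with a lone library that is assumed to vary like the rest. Their counts ran from 284 (without the deeper H2O2 library) to 3641 (without the shallower Control) over all genes, from 0 to 4 for the 7 genes, and from 1 to 10 for the other paraspeckle proteins. They ran from 0 to 13 for nuclear speckle proteins, from 1 to 9 for other long noncoding RNAs and from 1 to 6 for the chromosome 11 neighbours. For both the MALAT1 end genes and the exosome list they ran from 0 to 2. In each case the highest count came without the shallower Control library. The cause was not tested. Scaling by total count or upper quartile, and pseudocounts of 1 and 5, kept the sign of all 7 log2 ratios, with NEAT1 from -0.75 to -0.71 and MALAT1 from -0.48 to -0.45. Both the 2 libraries a group and, for PSPC1 and RBM14, counts of 390 to 616 reads limit precision.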
